A study of Rattus norvegicus with 6 samples.

Results

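The genes described are 9 that govern plasmin formation and the start of clotting at the cell surface. They are the plasminogen activators Plat (tissue-type, tPA) and Plau (urokinase, uPA), the urokinase receptor Plaur, the serpins Serpine2, Serpinb2 and Serpinf1, the thrombin receptor F2r, tissue factor F3 and its inhibitor Tfpi. They were found by symbol among the 21857 gene symbols of the count files, and all 9 were present and passed the filter on low counts, which left 12941 genes. The 9 genes were proposed with their levels in these libraries already known, and from the contrast that is described. Their values are therefore given as a description, with no p-value.

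Plasmin is a serine protease that dissolves fibrin and cleaves other matrix proteins. It is cut from its precursor plasminogen by tPA, which acts best on fibrin, and by uPA, which is held at the cell surface by its receptor. Serpins are inhibitors that trap such proteases in a stable complex: PAI-2 (Serpinb2) acts on uPA and tPA, protease nexin-1 (Serpine2) acts on thrombin as well, and PEDF (Serpinf1) has a serpin fold but no known protease inhibition. Tissue factor starts clotting by binding factor VII, TFPI blocks that complex, and thrombin signals to fibroblasts through PAR1 (F2r).

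RNA-seq was performed on 6 libraries of neonatal rat cardiac fibroblasts (NRCFs), primary cells from the hearts of Sprague-Dawley pups up to 3 days old, although the strain label reads Noway. In the Vector group (genotype label WT, 3 libraries) the cells received the empty plasmid, and in the other group (genotype label FTO overexpression, 3 libraries) they received the plasmid with rat FTO, an eraser of the RNA mark m6A. Per the study's methods, plasmids were given at 1 µg/ml and cells were collected after 48 h, so all 6 libraries come from transfected cells. The labels do not say whether the libraries of a group came from separate cultures, so p-values measure the spread between these libraries only, which may be technical.

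The libraries held 13178952 to 17857999 counts. Levels are given as CPM, counts scaled to library size with TMM factors, and 3 counts, taken as the floor, were worth 0.168 to 0.227 CPM. Fto, the targeted gene, was at 87.8, 89.6 and 87.4 CPM in Vector replicates 1, 2 and 3 and at 93.2, 90.8 and 92.9 CPM in those labelled FTO. The log2 fold change of Fto was 0.06 (SE 0.0468) and was not called by the edgeR quasi-likelihood test (adjusted p = 0.239). No rise of Fto mRNA was thus called, although the CPM ranges of the groups did not overlap, and the group is called FTO-labelled below. The study reports that the transfection was checked by qRT-PCR and FTO protein, and that m6A was lower by dot blot. Those are other measures, and whether they used the cultures of these libraries is not stated. Of 10 fibroblast markers, 5 were higher, 4 were lower and 1 was not called, with a summed level of 55168 to 56321 CPM in Vector and 35937 to 38608 CPM in the FTO-labelled libraries. Without Col1a1, the highest of them, the sums were 29714 to 30264 and 28102 to 30158.5 CPM. These near-equal sums hide large changes in both directions. Col3a1 fell from 10699 to 3338 CPM, while Dcn rose from 47.0 to 5611 CPM, and Fn1, at 17129 and 16463.5 CPM, was not called.

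Of the 9 genes, 5 differed at least 2-fold between the groups by the fitted fold change, 2 being higher (Serpinb2 and Tfpi) and 3 lower (Plau, F2r and Serpinf1) in the FTO-labelled libraries. Over all genes tested, 19.7% differed at least 2-fold, 10.4% being higher and 9.28% lower, and 19.6% passed the threshold stated by the study (a log2 change of 1 in size and p under 0.05). Group ranges of CPM were separate for 8 of the 9, Plaur being the exception, and for 70.3% of all genes tested. The edgeR test called 65.9% of all genes at an adjusted p of 0.05, 33.2% as higher and 32.8% as lower. The members were chosen on this contrast, so nothing is read from these shares.

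**Figure D1:**
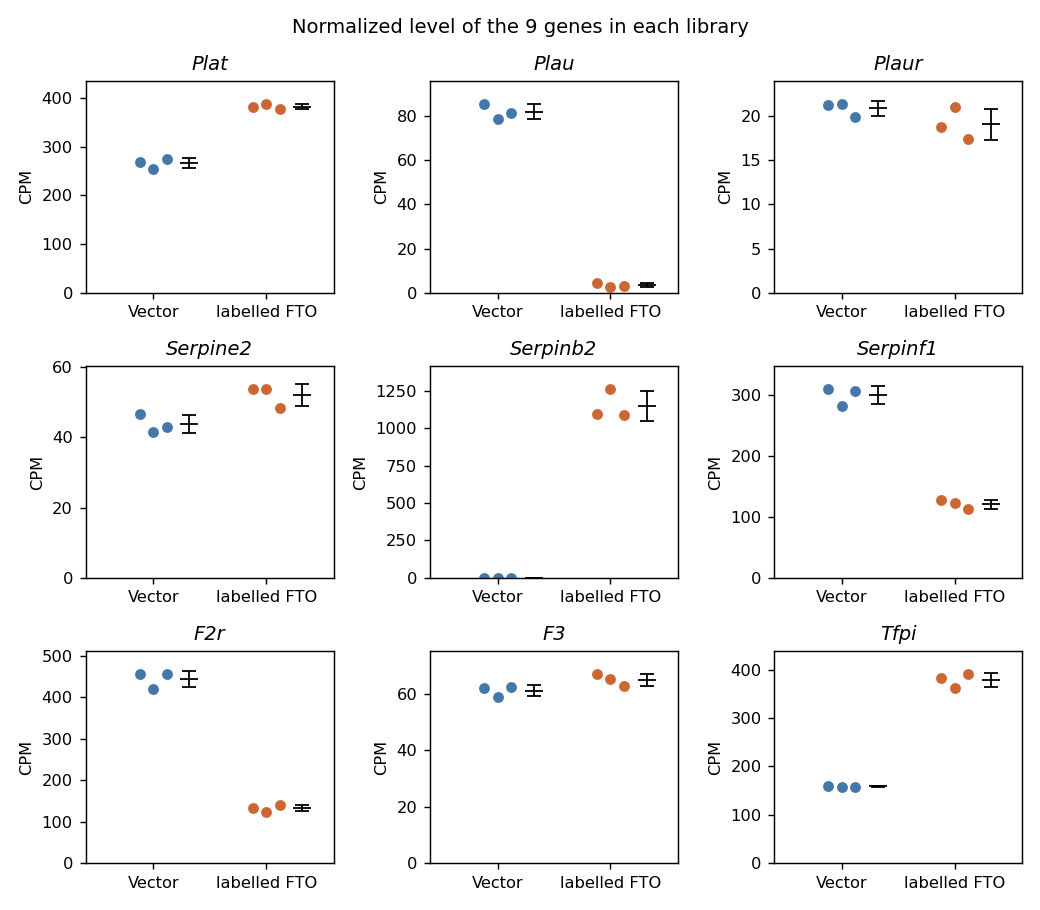
Level of each of the 9 genes in CPM (vertical axes, linear from 0), with 1 point per library, 3 libraries per group, and a bar for the mean ± SD beside the points. Plau sits at 78.9 to 85.7 CPM in Vector and at 2.57 to 4.35 CPM in the FTO-labelled libraries, Serpinb2 is near 0 in Vector and at 1089.6 to 1264 CPM in the others, and the points of Plaur overlap.

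The plasminogen activators differed in opposite directions. Plau was at 85.7, 78.9 and 81.5 CPM in Vector and at 4.35, 2.57 and 3.07 CPM in the FTO-labelled libraries, so every Vector library lay far above every other library. The log2 fold change was -4.62 (SE 0.110), which is 24.6-fold lower. Among 10042 tested genes with a mean of at least 100 counts, this was the fall of rank 14 by fitted value. Plau reached that mean through the Vector libraries and was chosen on this contrast, so the rank is a description. The libraries labelled FTO rest on 62, 34 and 55 counts of Plau and had a coefficient of variation of 27.6%, against 4.16% in Vector.

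Plat was at 269, 255 and 274 CPM in Vector and at 382, 388 and 377 CPM in the FTO-labelled libraries. The groups were separate, and the log2 fold change was 0.52 (SE 0.0416), or 1.44-fold higher. Of all genes tested, 62.7% had a smaller change in either direction. Within a library, there were 3.14, 3.23 and 3.36 counts of Plat per count of Plau in Vector and 87.8, 151 and 123 in the FTO-labelled libraries. Such a ratio of reads depends on the length of the transcripts, which was not known, but its change does not, and the mean ratio was 37.1-fold higher.

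Macrophages are known as a source of urokinase and of PAI-2, and their markers also differed. Of 10 macrophage markers, 9 were called lower and 1 (Adgre1) higher by the edgeR test. Their summed level was 611 to 634 CPM in Vector and 152 to 172 CPM in the FTO-labelled libraries. In bulk RNA, fewer cells of a type and less RNA per cell cannot be told apart, and the part of macrophages in the values of Plau and Serpinb2 was not tested.

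Mural and smooth muscle markers differed strongly in both directions, while their summed level was 1587 to 1648 CPM in Vector and 1314 to 1399.94 CPM in the FTO-labelled libraries. Of 8 such markers, 7 were tested, and the edgeR test called 4 lower and 3 higher. Notch3 fell from 226 ± 7.55 to 14.9 ± 2.98 CPM, Myh11, smooth muscle myosin, from 315 ± 6.83 to 27.1 ± 3.09 CPM (11.5-fold) and Cspg4 from 80.1 ± 3.46 to 30.1 ± 0.788 CPM (2.66-fold). Pdgfrb, the highest of the list, fell 1.40-fold. Without Pdgfrb, the other 7 markers summed to 721 to 746 CPM in Vector and 701 to 731 CPM in the FTO-labelled libraries, so these ranges overlapped. The channel subunits Kcnj8 and Abcc9 rose 29.7-fold and 5.46-fold, and the filament gene Des rose 5.47-fold. The part of mural cells in the value of Plau was not tested.

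The 250 bases before the annotated start sites of Plau and Serpinb2 are shown because these genes had the largest fall and the largest rise among the 9. The sequences are those of RefSeq on build GRCr8, while the submitters' processing notes name rn6 for the counts. Plau lies on the minus strand at chr15:3511988-3512237 and Serpinb2 on the plus strand at chr13:24055771-24056020. Each is written 5′ to 3′ in the direction of the gene, with matches to an AP-1, NF-κB or interferon-response (ISRE) motif in capitals.
Plau: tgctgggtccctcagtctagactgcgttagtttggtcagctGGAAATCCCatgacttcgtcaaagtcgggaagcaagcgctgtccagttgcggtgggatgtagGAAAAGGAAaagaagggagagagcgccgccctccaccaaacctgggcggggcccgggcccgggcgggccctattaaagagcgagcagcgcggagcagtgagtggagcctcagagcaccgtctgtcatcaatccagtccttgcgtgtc
Serpinb2: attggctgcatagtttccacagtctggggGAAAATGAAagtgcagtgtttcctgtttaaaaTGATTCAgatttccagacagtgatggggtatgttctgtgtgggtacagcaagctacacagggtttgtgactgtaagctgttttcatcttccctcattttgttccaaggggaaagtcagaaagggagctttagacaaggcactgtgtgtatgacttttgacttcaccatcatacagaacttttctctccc

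In Plau, the capitals mark an NF-κB match (GGGNNTTCC on the minus strand) at bases -209 to -201 and an ISRE core match (GAAANNGAA) at -147 to -139, counted back from the start site. In Serpinb2, they mark an ISRE core match at -221 to -213 and an AP-1 match (TGANTCA) at -189 to -183. Each match is a run of letters and not a measured binding site.

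The windows of 7 of the 9 genes could be read, with 8 windows in all since Tfpi has a pair of start sites, and Plat and F3 had no entry. Both strands were searched for 6 motifs. AP-1 letters occurred in 3 of the 8 windows (Plaur, F2r and Serpinb2) and in 6.34% of all 33469 promoter windows of the same length. ISRE core letters occurred in 3 of the 8 (Plau, Serpinb2 and 1 of Tfpi) and in 8.12% of all windows, and the NF-κB letters in 1 of the 8 and in 5.09% of all. The GC box (GGGCGG) occurred in 4 of the 8 windows and in 30.5% of all. The CRE (TGACGTCA) and the TATA letters (TATAAA) had no match in the 8 windows and were found in 1.59% and 12.9% of all. The genes with AP-1 letters, Plaur, F2r and Serpinb2, were at -0.14, -1.74 and 10.72 on the log2 scale, the groups of Plaur overlapping. Those with ISRE core letters, Plau, Serpinb2 and Tfpi, were at -4.62, 10.72 and 1.26. Any part of these motifs in the values was not tested.

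The urokinase receptor Plaur differed little. It was at 21.3, 21.4 and 19.9 CPM in Vector and at 18.7, 21.0 and 17.4 CPM in the FTO-labelled libraries. FTO-labelled replicate 2 lay inside the Vector range, so the groups overlapped. The log2 fold change was -0.14 (SE 0.0896). The count of Plau per count of Plaur was 3.93 ± 0.215 in Vector and 0.177 ± 0.0550 in the FTO-labelled libraries (SD, n = 3 each), so the ligand and receptor transcripts were not in the same proportion.

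Of the serpins, Serpinb2 had the widest difference. It was at 0.805, 0.805 and 0.416 CPM in Vector, from 11, 12 and 6 counts, and at 1095, 1264 and 1089.6 CPM in the FTO-labelled libraries, from 15604, 16732 and 19510 counts. The Vector libraries were above the floor, but few counts set the base of the fold change. The log2 fold change was 10.72 (SE 0.117), a fitted 1683-fold difference, and the rise of rank 9 among the 10042 genes with a mean of at least 100 counts. Serpinb2 reached that mean through the FTO-labelled libraries alone and was chosen on this contrast, so the rank is a description.

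Serpine2, the inhibitor of thrombin and of the plasminogen activators, was at 46.5, 41.6 and 42.9 CPM in Vector and at 53.7, 53.8 and 48.4 CPM in the FTO-labelled libraries. The highest Vector library and the lowest of the others were close, and the log2 fold change was 0.25 (SE 0.0667). Serpinf1, the serpin PEDF, was at 309, 282 and 306 CPM in Vector and at 127, 122 and 112 CPM in the FTO-labelled libraries. Its groups were well separated, with a log2 fold change of -1.32 (SE 0.0537), or 2.49-fold lower. The 3 serpins thus had no direction in common.

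**Figure D2:**
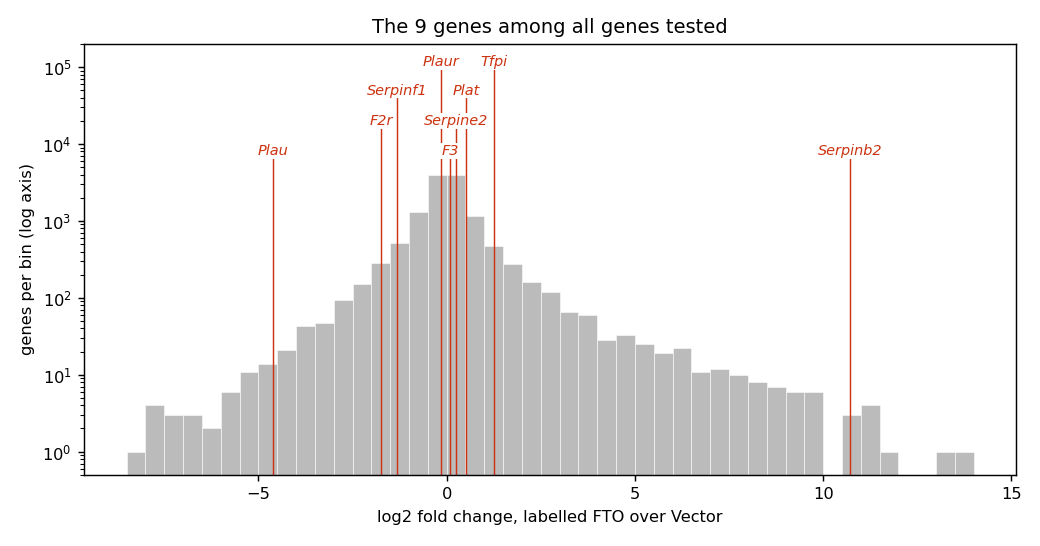
Number of genes (vertical axis, log scale) in bins of the log2 fold change, FTO-labelled over Vector, (horizontal axis) for the 12941 genes tested, with a line for each of the 9 genes. Serpinb2 at 10.72 and Plau at -4.62 lie in the sparse tails, and F3, Plaur, Serpine2 and Plat lie in the body of the distribution.

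Of the genes of clotting, the thrombin receptor F2r was lower. It was at 456, 421 and 456 CPM in Vector and at 134, 124 and 140 CPM in the FTO-labelled libraries. Each Vector library was at about the same level, well above the others, and the log2 fold change was -1.74 (SE 0.0524), or 3.35-fold lower. The count of Serpine2, which inhibits thrombin, per count of F2r was 0.0983 ± 0.0039 in Vector and 0.394 ± 0.0452 in the FTO-labelled libraries, 4.0-fold higher.

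Tissue factor, F3, was at 62.2, 58.8 and 62.6 CPM in Vector and at 67.1, 65.2 and 62.9 CPM in the FTO-labelled libraries. The groups did not overlap, but the lowest FTO-labelled library and the highest Vector library were almost equal, and the log2 fold change was 0.09 (SE 0.0549). Tfpi, which shuts off the tissue factor complex, was at 160, 158 and 157 CPM in Vector and at 384, 363 and 392 CPM in the FTO-labelled libraries. Its Vector libraries were the most alike of all 9 genes, with a coefficient of variation of 0.755%, and the log2 fold change was 1.26 (SE 0.0431), or 2.40-fold higher.

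The count of Tfpi per count of F3 was 2.57, 2.69 and 2.52 in Vector and 5.72, 5.56 and 6.23 in the FTO-labelled libraries. The inhibitor was thus more abundant relative to its target transcript in each FTO-labelled library, with a mean ratio 2.25-fold higher. Endothelial cells also make TFPI, tPA and thrombomodulin. Of 10 endothelial markers, 7 were tested, of which 4 were higher, 2 were lower and 1 was not called, and Cldn5 had no count in any library. Their summed level was 122 to 125 CPM in Vector and 117 to 121 CPM in the FTO-labelled libraries, but Flt1, which was lower, made up most of it. Without Flt1, the other 9 markers summed to 28.8 to 30.5 CPM in Vector and 55.2 to 57.9 CPM in the FTO-labelled libraries. Kdr was 4.39-fold, Cdh5 3.00-fold, Tek 2.23-fold and Egfl7 1.93-fold higher, and Erg was 2.92-fold lower. The part of endothelial cells in the values of Tfpi, Plat and Thbd was not tested.

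**Figure D3:**
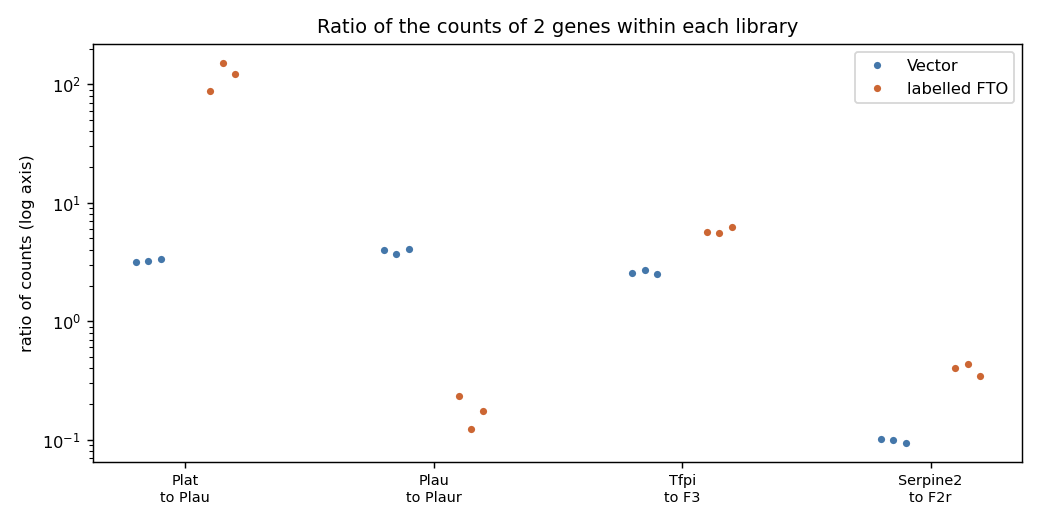
Ratio of the counts of the genes named on the horizontal axis within each library (vertical axis, log scale), with 1 point per library, 3 per group. Only the change of a ratio between groups is read, since transcript lengths were not known. Plat to Plau runs from 3.14 to 3.36 in Vector and from 87.8 to 151 in the FTO-labelled libraries.

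The other genes of the plasminogen system were then compared, on a list of 23 that holds inhibitors, receptors, clearance receptors and substrates. Of these, 17 were tested, and in the edgeR test with Benjamini-Hochberg adjustment over all genes 8 were higher, 7 were lower and 2 were not called (88.2% called, against 65.9% of all genes). The median log2 fold change was 0.0022 and the median size of change 0.79, against 0.0011 and 0.36 over all genes tested. The list thus had no common direction. This list and the later lists of clotting genes and other serpins were chosen with earlier results of these data known. Their shares and p-values are therefore descriptions, and nothing is read from the shares.

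Of the inhibitors named here, 2 rose and 1 fell. Tfpi2, a Kunitz inhibitor that acts on plasmin, rose from 3.43 ± 0.50 to 66.4 ± 6.10 CPM (SD, 3 libraries each), a log2 fold change of 4.27 (SE 0.111, adjusted p = 3.0e-14 in the edgeR test). Serpini1, neuroserpin, an inhibitor of tPA, rose from 1.17 ± 0.379 to 11.7 ± 0.90 CPM, a change of 3.32 on the log2 scale (SE 0.190, adjusted p = 5.0e-10 in the edgeR test). Serpinf2, the plasmin inhibitor α2-antiplasmin, fell from 1.11 ± 0.0799 to 0.524 ± 0.164 CPM, with an adjusted p of 0.0136 in the edgeR test. This call rests on 6 to 17 counts per library and was lost without FTO replicate 3 (adjusted p = 0.0809) and with DESeq2 (0.0651).

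Vldlr, an endocytic receptor that takes up protease and serpin complexes, fell from 462 ± 8.65 to 42.8 ± 2.70 CPM, a change of -3.43 on the log2 scale (SE 0.0515, adjusted p = 4.9e-17 in the edgeR test). Lrp1, the related receptor, was at 1637 ± 68.1 and 1639 ± 277 CPM and was not called (adjusted p = 0.984 in the edgeR test). The growth factor Hgf, whose precursor can be cut by uPA, rose from 8.29 ± 0.331 to 139 ± 4.21 CPM, a change of 4.07 on the log2 scale. Pdgfd, another precursor that uPA can cut, fell from 77.5 ± 2.41 to 36.4 ± 3.80 CPM, a change of -1.09 on the log2 scale. For Hgf and Pdgfd, the adjusted p in the edgeR test was 1.2e-16 and 1.9e-09.

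The plasminogen receptor parts Anxa2 and S100a10 moved apart. Anxa2 rose by 0.62 on the log2 scale and S100a10, its partner, fell by 0.67 (adjusted p = 6.7e-08 and 4.2e-08 in the edgeR test). Tnfrsf11b, a decoy receptor of the TNF family that is not part of plasmin formation itself, rose by 1.53 (SE 0.0438, adjusted p = 9.4e-14 in the edgeR test). Lrp1, Anxa2, S100a10, Eno1 and Plgrkt were picked out with their values in view, as were the genes of the next sentence. Plasminogen itself, Plg, had 2, 5 and 6 counts in Vector and 1, 1 and 0 in the FTO-labelled libraries and was not tested, and Vtn, which encodes the matrix protein vitronectin, had 1 count in all 6 libraries together.

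**Figure D4:**
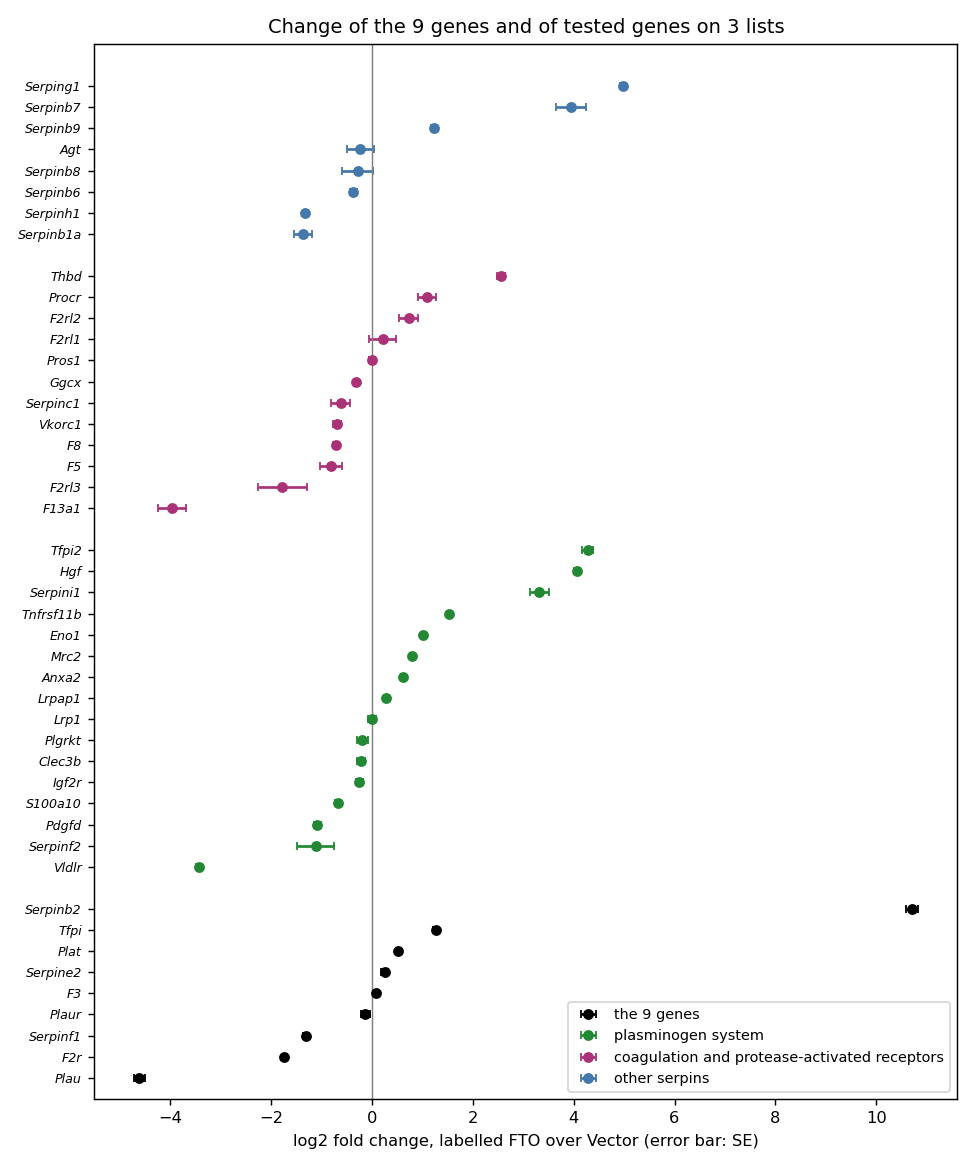
Fitted log2 fold change, FTO-labelled over Vector (horizontal axis, error bars are SE) for the 9 genes and for tested genes of 3 lists. Serpinb10, without a count in Vector, is not drawn. Each list holds genes on both sides of 0, from Plau at -4.62 to Serpinb2 at 10.72 among the 9.

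On a list of 29 other clotting genes and protease-activated receptors, 12 were tested, of which 3 were higher, 7 were lower and 2 were not called in the edgeR test (83.3% called, against 65.9% of all genes). The median log2 fold change was -0.47. The 3 higher genes were Thbd, Procr and F2rl2. Thbd, thrombomodulin, which turns thrombin towards activating protein C, rose from 10.3 ± 0.638 to 60.5 ± 1.68 CPM, a change of 2.56 on the log2 scale (SE 0.0745, adjusted p = 1.2e-13 in the edgeR test). Procr, the protein C receptor, rose from 2.56 ± 0.130 to 5.44 ± 0.581 CPM, and F2rl2, the thrombin receptor PAR3, from 2.66 ± 0.237 to 4.43 ± 0.697 CPM, with adjusted p-values of 5.5e-05 and 0.00400.

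Among the lower genes, F13a1, the subunit of the enzyme that cross-links fibrin, fell from 5.63 ± 0.300 to 0.358 ± 0.160 CPM, a change of -3.96 on the log2 scale (SE 0.274, adjusted p = 4.8e-09 in the edgeR test). F13a1 is also expressed by macrophages, most of whose markers were lower as given above. The part of macrophages in the value of F13a1 was not tested. The cofactors F5 and F8 fell by 0.82 and 0.71 on the log2 scale, and Vkorc1, of the vitamin K cycle, fell by 0.70 (adjusted p = 0.00478, 7.0e-08 and 1.0e-06 in the edgeR test). Of the other protease-activated receptors, F2rl1 (PAR2) was at 1.35 ± 0.0938 and 1.56 ± 0.194 CPM and was not called (adjusted p = 0.493). F2rl3, the thrombin receptor PAR4, fell from 0.935 ± 0.211 to 0.276 ± 0.195 CPM, opposite to PAR3, with 2 to 16 counts per library (adjusted p = 0.00500 in the edgeR test). The 17 genes not tested hold prothrombin (F2), with at most 2 counts in any library, and the fibrinogen chains Fga, Fgb and Fgg, with at most 3, named, like F2rl1 and F2rl3, with their values in view.

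Of 22 other serpins with a row in the files, 9 were tested, and 4 were higher, 3 were lower and 2 were not called in the edgeR test (77.8% called, against 65.9% of all genes), with a median log2 fold change of -0.23. Serping1, the C1 inhibitor, which also blocks kallikrein and factor XII, rose from 46.6 ± 2.25 to 1473 ± 72.7 CPM, a change of 4.98 on the log2 scale (SE 0.0559, adjusted p = 2.3e-18 in the edgeR test). Of the clade B serpins, to which Serpinb2 belongs, Serpinb7 rose from 0.397 ± 0.0543 to 6.15 ± 1.38 CPM and Serpinb9, the granzyme B inhibitor, from 69.7 ± 2.69 to 163 ± 10.6 CPM, with adjusted p-values of 1.3e-08 and 2.9e-11. Serpinb10 had no count in any Vector library and was at 3.37, 2.34 and 3.52 CPM in the FTO-labelled libraries. Their mean, 3.08 ± 0.640 CPM, was at least 14.7-fold higher than Vector, with Vector set to the mean floor of its libraries (adjusted p = 2.1e-07 in the edgeR test). Serpinb10 and Serpinb7, the latter with 5 to 6 counts per Vector library, passed the filter on low counts only through the FTO-labelled libraries. Their calls as higher were thus largely fixed in advance, and nothing is read from them.

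Not every clade B serpin was higher. Serpinb1a, an inhibitor of neutrophil proteases, fell from 6.72 ± 0.136 to 2.62 ± 0.579 CPM and Serpinb6 from 141 ± 2.29 to 109 ± 11.3 CPM, with adjusted p-values of 5.6e-06 and 8.6e-05 in the edgeR test. Serpinb8 was at 1.55 ± 0.453 and 1.27 ± 0.211 CPM and was not called (adjusted p = 0.411), and was named with its values in view. Serpinh1, the collagen chaperone HSP47, which has a serpin fold and inhibits no protease, fell by 1.33 on the log2 scale (SE 0.0367, adjusted p = 5.8e-14 in the edgeR test). Several clade B serpins have close copies in the rat, and how reads shared by copies were counted is not stated, so their counts are uncertain to that extent.

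The genes most like Serpinb2 and Plau in pattern were found among genes with a mean of at least 100 counts. The measure was the Euclidean distance of log2(CPM + 0.5), centred on each gene's own mean, over the 6 libraries. Those nearest to Serpinb2 were Slpi, Cxcl6 and Lcn2, at distances of 0.815, 0.983 and 1.09. Slpi, a secreted protease inhibitor outside the serpin family, was at 1.32 ± 0.293 CPM in Vector and at 1293 ± 110 CPM in the FTO-labelled libraries. Those nearest to Plau were Actg2, Piezo2 and Fras1, at 0.302, 0.330 and 0.430. Actg2, a smooth muscle actin whose reads can be shared with other actins, was at 94.7 ± 2.33 and 3.33 ± 0.605 CPM. With 6 libraries in 2 groups, likeness depends mainly on the size of the difference between the groups on this scale. The added 0.5 compresses very low levels, such as those of Cxcl6, at 0.0462 ± 0.0800 CPM in Vector and 786 ± 85.0 CPM in the FTO-labelled libraries. The fitted log2 changes of Slpi, Cxcl6 and Lcn2 were 9.92, 13.80 and 10.63, so their order did not follow closeness to the 10.72 of Serpinb2.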

How the data were processed

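RNA-seq was performed by the study on 6 samples, 3 per group. The deposited values are raw read counts by gene symbol, in 1 file for each library. The submitters' processing notes name Trimmomatic and build rn6. The aligner, counting program, annotation and use of strand are not given in the sources used here. Groups were taken from genotype labels and replicate numbers from titles.

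Genes were kept by filterByExpr of edgeR 4.0.16 (minimum count 10), scaled by TMM, and compared with glmQLFit and glmQLFTest in R 4.3.3, two-sided, without covariates, with Benjamini-Hochberg adjustment over 12941 genes. The SE is the log2 change divided by the root of F. The filter can keep a gene on the counts of a single group, as with Serpinb10, Serpinb7, F13a1, F2rl3 and Serpinf2. Calls of such genes are descriptions. The study states a threshold of 1 on the log2 scale with p under 0.05 and names no test. The procedure was run on simulated data in which far fewer genes changed than were called here. That run therefore cannot show how the scaling and the calls behave under such wide change. Depth was 13178952 to 17857999 counts. The floor concerns counting alone, while the SD and SE include the spread between libraries. The study's methods for RNA-seq do not mention molecular identifiers.

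The 9 genes, the gene lists and the motifs were chosen with earlier results of these data known. From each of 3 lists, the text names up to 4 rises and 4 falls of largest fitted size, with an adjusted p under 0.05 and a mean of at least 10 counts; others named were singled out later. One gene of the plasminogen list is included in the counts, but its own values are not reported here. Lists of cardiomyocyte and epicardial markers had summed levels of 1463 to 1492 and 106 to 112 CPM in Vector and of 2189 to 2224 and 332 to 395 CPM in the FTO-labelled libraries. Of 8 cardiomyocyte markers, the edgeR test called 7 higher and 1, Tnnt2, lower. Without Tnnt2, the highest of them, the sums were 691 to 715 CPM in Vector and 1544 to 1561 CPM in the FTO-labelled libraries. Of 7 epicardial markers, 5 were higher, 1 was lower and 1 was not called. Without Aldh1a2, the highest, the sums were 49.4 to 54.9 and 188 to 205 CPM. Transcript lengths were not given, so levels per transcript were not compared between genes. The marker sums and the highest marker of a list refer to CPM alone. Alternatives were DESeq2 1.42.0, limma-voom (limma 3.58.1), other scalings and filters, a replicate block, and leaving out each library.

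Replicates were separate libraries, differing beyond sampling noise, since chi-square over its degrees of freedom was 1.57 to 8.43 within groups.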

Additional observations from a re-analysis of the deposited data

How the results depend on the processing

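Under 13 alternatives, 5 of the 9 genes differed at least 2-fold each time, and each of the 9 kept its direction. Serpinb2 ran from 10.46 to 10.87, Plau from -4.85 to -4.49, Plaur from -0.21 to -0.077 and F3 from 0.057 to 0.11 on the log2 scale. The number of genes called was 7795 to 9009, of the plasminogen list 13 to 16, of the clotting list 9 to 11 and of the other serpins 7 to 9. For Fto and the 21 genes that the rule named from the 3 lists, 284 refits kept the call and 2 did not, both of Serpinf2, which was lost with DESeq2 (adjusted p = 0.0651) and without FTO replicate 3 (0.0809 in edgeR). The cause was not tested. Other named genes were not compared under the alternatives. No pairing of the samples by replicate number was seen. Deviations from the group means correlated at -9.1e-04, -0.0797 and 0.042 for the same number and at -0.117 to 0.114 for different numbers. With so few libraries, and a spread that may be technical, this check cannot exclude pairing. With the replicate block, 8399 genes were called, and 15, 10 and 7 genes of the 3 lists. Depth limits Serpinb2 in Vector, Plau in the FTO-labelled libraries, and genes under 10 counts, such as Plg.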
